A study of Mus musculus with 22 samples.

Results

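The genes T, Sox2 and Nkx1-2 were followed through gastruloids, balls of cultured mouse embryonic stem cells in which early embryonic cell types arise. The 3 members were chosen by symbol, as 3 of the 32285 genes of the count files, and were read as levels and as joint detection in single cells. T, or Brachyury, is the T-box transcription factor of the primitive streak, the early mesoderm and the notochord. Sox2 is a SoxB1 transcription factor of pluripotent and neural cells. Nkx1-2 is a homeobox transcription factor of the caudal epiblast and the neural tube that borders it. Neuromesodermal progenitors (NMPs) lie in the caudal epiblast and the tail bud, supply both the spinal cord and the paraxial mesoderm, and are recognised by joint expression of T and Sox2. Wnt and Fgf signals maintain them. T promotes the exit to mesoderm and Sox2 the exit to neural fate.

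All gastruloids came from the E14Tg2A line, which is a single cell line, with 300 cells per aggregate. After 48 h they received 3 µM CHIR99021, an inhibitor of GSK3 that activates Wnt signalling, so every group shares this treatment and no group lacks it. In MULTI-seq, each gastruloid is labelled with a DNA barcode of its own before its cells are pooled. MULTI-seq 3 covered day 3 with 24 gastruloids and days 3.5, 4, 4.5 and 5 with 16 apiece. MULTI-seq 2 (pool B) covered days 4 and 4.5 with 12 apiece, and MULTI-seq 1 covered day 5 with 24. Of these 136 gastruloids, 135 had at least 30 cells and were used as replicates. Days 3.5 and 4 of MULTI-seq 3 shared a pool, as did days 4.5 and 5 and the 2 days of MULTI-seq 2. Between other days, and between experiments, the pool or experiment and the condition cannot be told apart. Nothing in the labels says that gastruloids of a pool came from separate cultures, so p-values measure the spread between gastruloids of a pool.

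The final cells numbered 77674, of which 53730 carried the barcode of a single gastruloid, and the authors gave each cell 1 of 25 cluster names. The median cell of a group held 25103 to 36103 UMIs (unique molecular identifiers, which count captured RNA molecules) in MULTI-seq 2 and 3, but 11141.5 in MULTI-seq 1. Joint detection depends on this depth, so every cell was thinned to 5000 UMIs, and a share is the expected percent of cells with at least 1 UMI of each gene. The thinning left out 189 shallower cells, all of MULTI-seq 1. Levels are counts-per-million (CPM), the UMIs of a gene scaled to a common total of UMIs per gastruloid, and are counted by molecule and not per length. Of 76935 distinct cell barcodes, 732 were seen in more than 1 lane. Cluster names follow the expression of the same cells. Of 9 caudal markers other than the members (Cdx1, Cdx2, Cdx4, Wnt3a, Fgf8, Cyp26a1, Hes3, Sp5 and Evx1), 6 were among the 5 highest names in NMPs and 8 in Caudal Epiblast, and none was at 0. The summed level of 22 caudal epiblast and NMP genes was highest in cells named NMPs (3319 CPM), followed by Caudal Epiblast (2997 CPM).

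The promoters show what lies next to each start. The 250 bases before the RefSeq start (build GRCm38.p6) of each gene are printed because Wnt activation is common to every gastruloid here, and TCF/LEF factors carry the Wnt signal to DNA. Capitals mark matches to the TCF/LEF word NNCAAAG with A or T at both N, on either strand. T is at chr17:8434423-8442496 on the plus strand, and its window is chr17:8434173-8434422. Sox2 is at chr3:34650405-34652461 on the plus strand, and its window is chr3:34649745-34649994, since RefSeq places the start upstream of the GENCODE one. Nkx1-2 is at chr7:132594878-132599637 on the minus strand, and its window is chr7:132599638-132599887. Gene positions are those of GENCODE on GRCm38.
T: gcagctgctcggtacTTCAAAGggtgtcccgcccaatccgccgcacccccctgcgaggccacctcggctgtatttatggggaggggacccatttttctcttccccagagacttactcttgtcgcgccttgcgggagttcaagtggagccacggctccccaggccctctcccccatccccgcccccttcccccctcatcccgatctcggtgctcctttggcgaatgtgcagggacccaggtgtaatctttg
Sox2: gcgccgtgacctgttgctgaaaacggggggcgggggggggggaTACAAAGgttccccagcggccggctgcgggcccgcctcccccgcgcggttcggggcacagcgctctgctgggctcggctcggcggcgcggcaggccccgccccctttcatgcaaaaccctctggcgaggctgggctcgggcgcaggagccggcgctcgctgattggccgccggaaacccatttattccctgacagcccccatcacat
Nkx1-2: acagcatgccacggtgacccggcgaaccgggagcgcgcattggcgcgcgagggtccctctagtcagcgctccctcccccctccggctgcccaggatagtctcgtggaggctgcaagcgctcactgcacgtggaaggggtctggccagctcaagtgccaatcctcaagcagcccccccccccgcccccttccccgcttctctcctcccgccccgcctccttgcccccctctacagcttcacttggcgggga
T held 1 match, which began 235 bases before the start, and Sox2 held 1, which began 207 bases before it. The window of Nkx1-2 held none. Among 32841 windows of this length, 14.8% held at least 1 match. None of the 3 windows held the T-box word GGTGTGA, which 3.33% of windows held. The 3 windows had 62.8%, 72% and 69.6% G and C (T, Sox2, Nkx1-2), against a median of 52.4%. A match of letters is a description and not a bound site. Sox2 lies inside Sox2ot, a long RNA on the same strand (chr3:34104270-34682619), so reads of the 2 genes could not be told apart by strand where they overlap.

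T fell over the days, Sox2 rose late, and Nkx1-2 peaked at day 3.5 among the days of MULTI-seq 3. T stood at 452.7 CPM ± 71.5 (SD, n = 24) at day 3, with a lowest gastruloid of 306, a median of 462 and a highest of 553. At day 3.5 its mean was 251.5 ± 101 (n = 16, 67.05 to 439.6), and at day 4 it was 93.7 ± 51.0 (n = 16, 32.9 to 233). It then stood at 48.8 ± 46.5 at day 4.5 (median 33.6) and at 33.8 ± 26.8 at day 5 (median 27.6). The lowest gastruloid of day 3 was above the highest of day 4, whereas neighbouring days overlapped.

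Sox2 was low at day 3, with 21.1 CPM ± 6.65 (n = 24, 12.8 to 39.8). Its medians were 34.0 at day 3.5 and 16.5 at day 4, and then 53.2 at day 4.5 and 68.7 at day 5. Single gastruloids differed widely, from 6.35 to 123 CPM at day 4 and from 15.4 to 246 CPM at day 4.5. Nkx1-2 stood at 70.9 CPM ± 20.6 at day 3 and at 140.1 ± 62.5 at day 3.5, where gastruloids ran from 29.6 to 209. It was at 31.2 ± 45.7 at day 4 (median 13.5, highest 169), 34.8 ± 19.9 at day 4.5 (median 26.1) and 24.2 ± 9.37 at day 5 (median 25.5), so that from day 4 to day 5 the mean was lower and the median higher. The gastruloids of one day therefore overlapped those of the next for Sox2 and Nkx1-2 throughout.

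**Figure D1:**
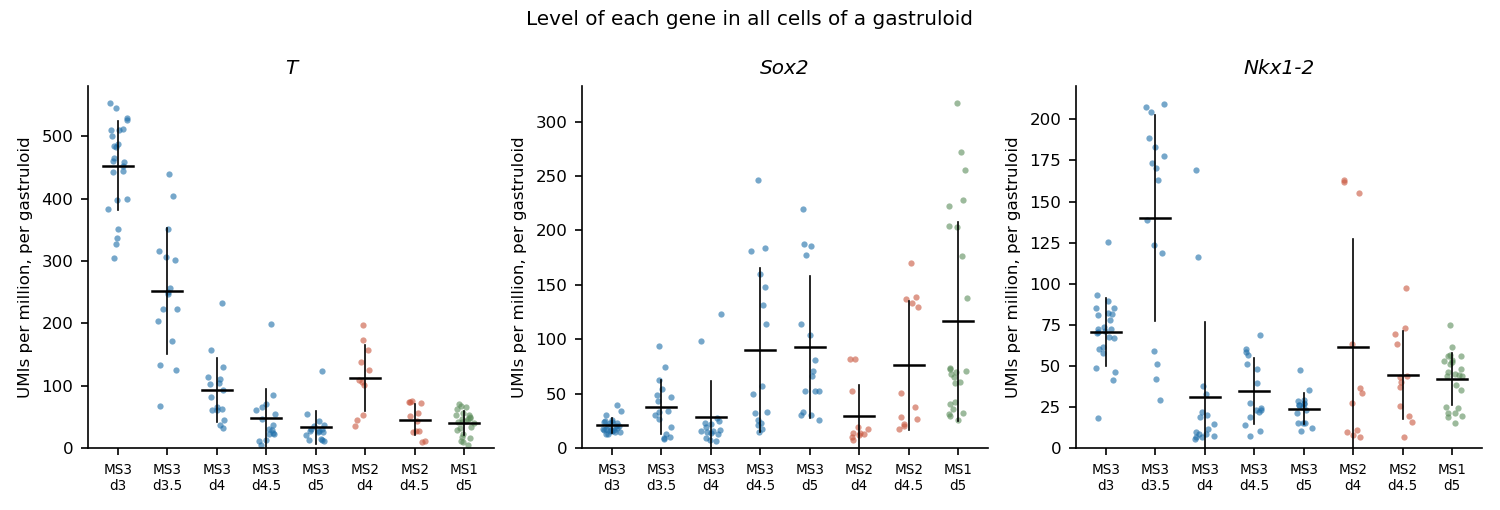
Level of T, Sox2 and Nkx1-2 (vertical axes, CPM) in each gastruloid (points) by experiment and day (horizontal axis; MS1 to MS3 are the 3 MULTI-seq experiments and d is the day). Lines are means and bars SD; T falls from a mean of 452.7 at day 3 to 33.8 at day 5 of MULTI-seq 3, while Sox2 of late gastruloids spreads up to 317 in MULTI-seq 1.

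Within the pool of days 3.5 and 4, the log2 fold change of T was -1.47 (SE 0.26) and its adjusted p was 4.16e-07 (edgeR's quasi-likelihood test with Benjamini-Hochberg adjustment over 13282 genes, 16 gastruloids against 16). Nkx1-2 fell by 2.23 (SE 0.33, adjusted p = 4.88e-09) in the same comparison. Sox2 did not pass the test, at -0.50 (SE 0.37, adjusted p = 0.246). In this comparison 58.6% of all genes passed the test, 28.7% as higher and 29.9% as lower, so passing was common. Of the 22 caudal epiblast and NMP genes, 15 fell and 1 rose, with a median of -1.10 against -0.00 for all genes. Pou5f1, the pluripotency factor that persists in early epiblast, fell by 2.63, and Cdx1, a caudal homeobox gene, fell by 2.44. Of 14 mesoderm exit genes 8 rose and 1 fell, with a median of 0.97. Tcf15 and Meox1, transcription factors of the somites, rose by 4.65 and 4.44, and Mesp2, which marks the next somite to form, rose by 3.42. Of the 14 neural exit genes tested, 3 rose and 4 fell. Markers of other cell types rose in the same comparison, with 5 of 6 somite, 5 of 5 cardiopharyngeal and 4 of 6 endoderm markers tested higher and none lower, and their part in the falls of T and Nkx1-2 was not tested. Sums over whole gastruloids cannot tell fewer cells of a type from less RNA per cell.

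Between days 4.5 and 5, again within 1 pool, none of the members passed the test. The log2 fold changes were -0.56 for T (SE 0.27, adjusted p = 0.148), 0.05 for Sox2 (SE 0.36, adjusted p = 0.971) and -0.54 for Nkx1-2 (SE 0.34, adjusted p = 0.293), where 13.3% of genes passed. In the pool of MULTI-seq 2, day 4.5 against day 4 (12 against 11 gastruloids), T fell by 1.26 (SE 0.33, adjusted p = 0.00364) and Sox2 rose by 1.5 (SE 0.51, adjusted p = 0.0343). Nkx1-2 stood at -0.38 (SE 0.42, adjusted p = 0.619), with the opposite sign when gastruloids needed at least 100 cells, and 14.1% of genes passed. The means behind these were 113 CPM and 46.1 CPM for T, and 29.7 and 76.1 CPM for Sox2. The call for Sox2 was lost when all genes with at least 1 UMI were tested (adjusted p = 0.0583), in a fit of these 2 groups alone (1.46) and without lane 3 (1.63).

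Across pools of MULTI-seq 3 the same step from day 4 to day 4.5 gave T at -0.75 (SE 0.26, adjusted p = 0.00808; -0.74 and adjusted p = 0.0563 in an edgeR fit of these 2 groups alone) and Sox2 at 1.89 (SE 0.37, adjusted p = 4.29e-06), while 67.1% of genes passed. Nkx1-2 was at 0.38 (SE 0.33, adjusted p = 0.307). The difference between the experiments in this step, a contrast added after the data were seen, was 0.51 for T (SE 0.42, adjusted p = 0.365), 0.39 for Sox2 (SE 0.63, adjusted p = 0.686) and 0.76 for Nkx1-2 (SE 0.54, adjusted p = 0.288). From day 3 to day 3.5, T fell by 1.01 (SE 0.24, adjusted p = 9.32e-05) and Nkx1-2 rose by 0.81 (SE 0.29, adjusted p = 0.0100), with 68.6% of genes passing. Sox2 was at 0.69 (SE 0.36, adjusted p = 0.0754).

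The experiments were then compared at equal days. At day 4, MULTI-seq 3 was below MULTI-seq 2 in Nkx1-2 by a log2 fold change of -1.05 (SE 0.39, adjusted p = 0.0178), where 50% of genes passed. This value was 0.33 when gastruloids needed at least 100 cells, and the call was lost in a fit of these 2 groups alone (-1.09) and without lane 2 (-0.66) or lane 3 (-0.83) of MULTI-seq 2. T (-0.42, adjusted p = 0.232) and Sox2 (-0.05, adjusted p = 0.947) did not pass, and Sox2 had the opposite sign with at least 100 cells. At day 4.5 no member passed, with 0.09, 0.34 and -0.28 for T, Sox2 and Nkx1-2 (adjusted p = 0.844, 0.540 and 0.582), beside 43.5% of genes. At day 5 against MULTI-seq 1 the values were -0.08, -0.08 and -0.61 (adjusted p = 0.799, 0.862 and 0.0853), beside 58.8% of genes. Scaling mattered between pools. With no scaling beyond library totals, an alternative added after the data were seen, the median of all genes moved by 0.15 to 0.22 from day 3 to 3.5, from day 4 to 4.5 of MULTI-seq 3, at day 4 against MULTI-seq 2 and at day 5 against MULTI-seq 1, and Nkx1-2 at day 5 passed (-0.83, adjusted p = 0.0140 by edgeR), as did Sox2 from day 3 to 3.5 (0.87, adjusted p = 0.0236). Both also passed in fits of the 2 groups alone.

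The cluster names ordered the members differently. These levels are a description without a test, because the names were made from the expression of the same cells. They pool days and experiments, of which the names hold unlike parts, and T in NMPs fell between days (given below). T was highest in Notochord (812 CPM ± 196, n = 18 gastruloids with at least 10 such cells), followed by Primitive Streak (614 ± 118, n = 46) and Caudal Epiblast (434 ± 102, n = 44). The gap in mean from each of these 3 to its next lower neighbour was larger than the larger of the 2 SDs, although the ranges of mean ± SD overlapped. That gap is the measure of spread for names throughout. Anterior Primitive Streak (316 ± 38.4, n = 4), Early Nascent Mesoderm (298 ± 111, n = 30), NMPs (237 ± 122, n = 76) and Early Posterior PSM (presomitic mesoderm, 172 ± 143, n = 52) followed and did not differ beyond their spread. Endothelium had 6.01 CPM.

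Sox2 was highest in Late Spinal Cord (262 CPM ± 48.5, n = 40) and Late Neurectoderm (218 ± 98.7, n = 17), whose gap was within the spread, and then in Early Spinal Cord (126 ± 41.1, n = 84). NMPs came next among the names with at least 10 cells in a gastruloid, with 69.0 ± 20.3 (n = 76), and Caudal Neurectoderm (61.6), Caudal Epiblast (48.4) and Notochord (46.1) did not differ from their neighbours beyond the spread. Nkx1-2 was highest in Caudal Neurectoderm (204 ± 54.6, n = 25), Caudal Epiblast (174 ± 49.4, n = 44) and Early Neurectoderm (169 ± 26.0, n = 31), which did not separate. Early Spinal Cord (116 ± 34.8) and NMPs (95.7 ± 27.6) followed, and Notochord had 9.46. By these names NMPs ranked 6 for T, 4 for Sox2 and 5 for Nkx1-2. The ranks leave out names without a gastruloid of at least 10 such cells, among them PGCs (primordial germ cells), and include names that reached this in 1 gastruloid. The authors' embryo-mapped names number 71, against 25 cluster names, so ranks in the 2 sets are not on 1 scale. With the embryo-mapped names, under the same minimum, NMPs ranked 13 for T (88.7 CPM ± 77.6, n = 83). They ranked 12 for Sox2, at 99.1 CPM against 69.0 CPM by cluster name, and 2 for Nkx1-2 (122 CPM). T was highest there in Node (1263 CPM ± 340, n = 5), before Notochord (819 CPM ± 276, n = 11), and Caudal epiblast was at 302 CPM.

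**Figure D2:**
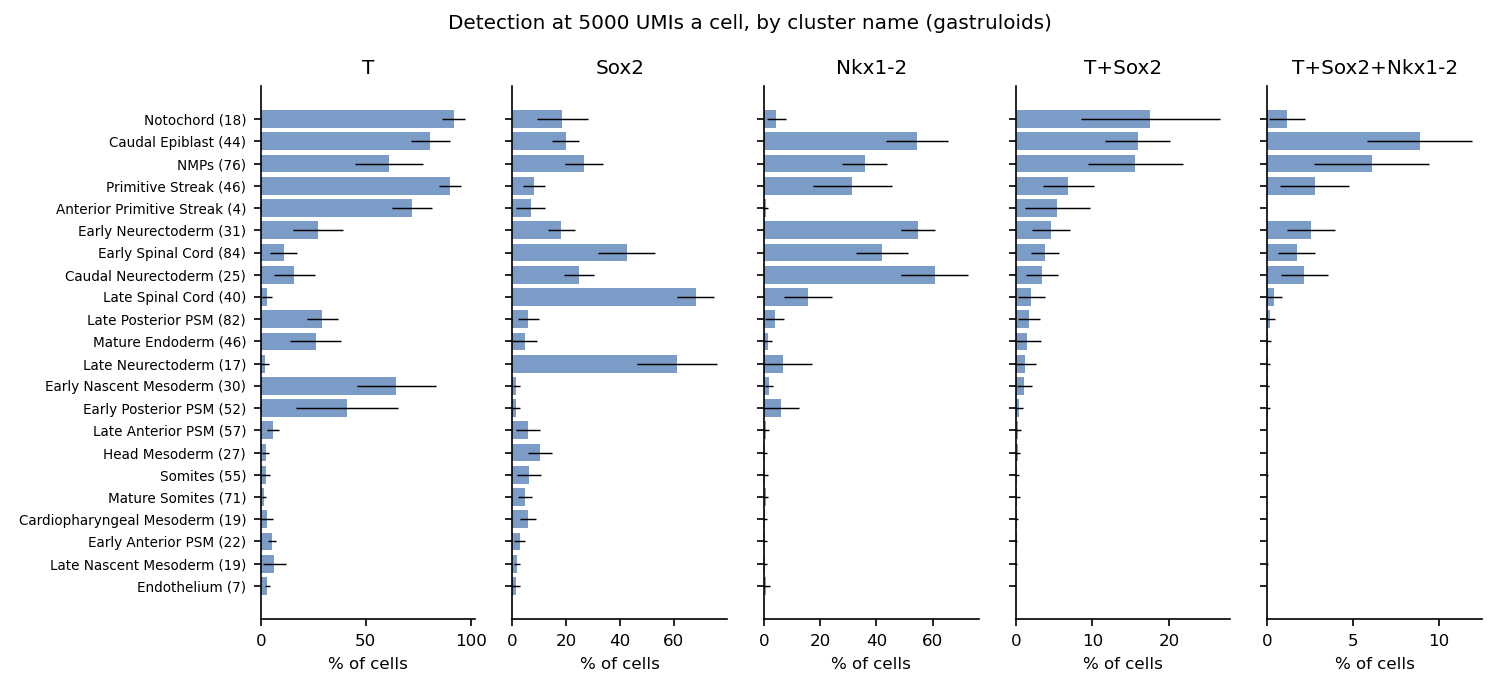
Percent of cells in which each member, T with Sox2, or all members together were detected after thinning to 5000 UMIs, by cluster name. Names shown have at least 4 gastruloids, whose number is in brackets. Bars start at 0 and error bars are SD over gastruloids. The share of T with Sox2 in Notochord (17.5%) lies within the spread of those of Caudal Epiblast (15.9%) and NMPs (15.6%). The share in Notochord is low when Nkx1-2 is required as well (1.15%).

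By the authors' cluster names, joint detection of T and Sox2, pooled over days and experiments, was most frequent in 3 that did not separate by their spread. The share per gastruloid was 17.5% ± 9.09 (SD, n = 18) in Notochord, 15.9% ± 4.22 (n = 44) in Caudal Epiblast and 15.6% ± 6.25 (n = 76) in NMPs. Primitive Streak followed with 6.83% ± 3.33, Early Neurectoderm with 4.62% and Early Spinal Cord with 3.80%. Adding Nkx1-2 as a required gene lowered Notochord to 1.15%, but Caudal Epiblast to 8.87% ± 3.04 and NMPs to 6.07% ± 3.33. Over all cells with a name, also those without a single gastruloid call, 1.53% of Notochord cells had all 3 genes. Nkx1-2 alone was detected in 7.06% of Notochord cells, against 37.1% in NMPs and 55.9% in Caudal Epiblast. The sum of 10 notochord and streak genes, which include Noto and Shh, was 13.9 CPM in NMPs and 23.7 CPM in Caudal Epiblast, against 479 CPM in Notochord. The names differ in the days they come from. At day 4 of MULTI-seq 3 alone, T and Sox2 were together in 24.6% ± 4.85 of NMPs (n = 14). In Caudal Epiblast of that day the share was 17.9% ± 4.52 (n = 15), a gap larger than the larger SD.

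The order differed under the authors' embryo-mapped names, an alternative added for these shares after the data were seen. There Notochord had T and Sox2 in 23.6% ± 10.4 (n = 11), Caudal mesoderm in 18.5% ± 9.07 (n = 6), NMPs/Mesoderm-biased in 17.5% ± 7.93 (n = 44), Node in 11.6% (n = 5), Caudal epiblast in 10.3% ± 5.30 (n = 94) and NMPs, which ranked 6, in 8.67% ± 5.69 (n = 83). All 3 genes were together in 7.04% of NMPs/Mesoderm-biased, 5.23% of Caudal epiblast, 3.76% of NMPs and 0.816% of Notochord. The share in NMPs thus depended on which set of names was used. Pooled over days, the mean share of T with Sox2 was highest in Notochord under both after thinning, by less than the spread. The share of all 3 genes in Notochord was 1.15% and 0.816%.

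Without thinning, at the full depth of each cell, T and Sox2 were detected together in 2114 of 3634 NMPs, or 58.2% (exact Clopper-Pearson 95% interval 56.5 to 59.8%, for counting error only), at a median of 22943 UMIs per cell. All 3 genes were detected in 49.2% of NMPs. The unthinned share was 59.0% in Caudal Epiblast (2115 of 3586 cells) and 47.1% in Notochord (587 of 1247). Counts in this paragraph cover all cells of a name, including those without a single gastruloid call. The part of doublets in these shares was not tested. The background of joint detection in names that should lack the genes was lower. T and Sox2 were together in 4 of 303 Endothelium cells (1.32%, median 22577 UMIs) and in 69 of 2360 cells of Cardiopharyngeal Mesoderm (2.92%, median 24464.5 UMIs). After thinning these shares were 0.0488% and 0.123%, against 15.9% in NMPs. A joint share needs both genes, so it does not give the background of 1 gene where the other is expressed. Unthinned, Sox2 was detected in 6.93% of Endothelium and 18.2% of Cardiopharyngeal Mesoderm cells, and T in 17.5% and 12.8%. The part of such background in the joint shares of NMPs was not tested. PGCs, with Sox2 in 48.0% and T in 20.03% of 279 cells after thinning, had both in 6.52%. Unthinned, PGCs had Sox2 in 85.7%, T in 53.4% and both in 41.9%.

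The names of the cells with both T and Sox2 changed over time, and so did the shares of names among all cells. At day 3, 58.7% of the cells with both genes were named Primitive Streak, 14.0% Early Neurectoderm and 10.8% Caudal Epiblast. Of all cells at day 3, these names made up 56.8%, 13.1% and 3.06%. At day 3.5, 47.8% of the cells with both genes were named Caudal Epiblast and 21.7% Primitive Streak. At day 4 of MULTI-seq 3, Caudal Epiblast held 29.4%, NMPs 28.1% and Notochord 19.2%. NMPs held 40.6% at day 4.5, 39.5% at day 5 and 44.0% at day 5 of MULTI-seq 1, and Early Spinal Cord held 21.7%, 22.7% and 28.3%. Of all cells in these groups, Early Spinal Cord made up 20.6%, 16.9% and 23.3%. The part of changing cell numbers in these shares was not tested. NMPs made up 7.67% of the cells at day 5 of MULTI-seq 3, and held 58.8% of the cells with all 3 genes there. The cells with both genes were thus never of a single name in any group, and a majority of them lay outside NMPs in all 8.

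Which names carried each gene's RNA also changed. Of the summed level of T, Primitive Streak held 77.5% at day 3, Notochord 26.9% and Caudal Epiblast 23.0% at day 4, and Notochord 31.2% and NMPs 29.2% at day 5 of MULTI-seq 3. At day 5 of MULTI-seq 1, NMPs held 45.5% of it. Of the summed level of Sox2 at day 5, Late Spinal Cord held 52.6% in MULTI-seq 3 and 52.1% in MULTI-seq 1. Of Nkx1-2, Early Spinal Cord held 55.9% and 57.8%, and NMPs 27.5% and 24.9%.

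Shares of all cells with joint detection were compared between groups of gastruloids by two-sided permutation tests (100000 resamples), adjusted over 32 tests by Benjamini-Hochberg, of which 10 passed. From day 3.5 to day 4, cells with T and Nkx1-2 dropped from a mean of 19.9% (8.26 to 34.6%) to 4.93% (1.59 to 13.0%), with an adjusted p of 0.00032 and 16 of 16 gastruloids of day 4 below the median of day 3.5. Cells with all 3 genes fell from 2.83% ± 1.40 to 1.15% ± 0.911 (adjusted p = 0.00262, 15 of 16 below). Cells with Sox2 and Nkx1-2 fell from 8.20% to 3.01% (adjusted p = 0.0227). Cells with T and Sox2 stood at 4.71% ± 1.91 and 3.21% ± 1.80, which did not pass (adjusted p = 0.0773, 14 of 16 below). Without thinning this last difference passed, at -13.8 percentage points, as it did with at least 2 UMIs of each gene (-8.54) and without lane B (-1.60).

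**Figure D3:**
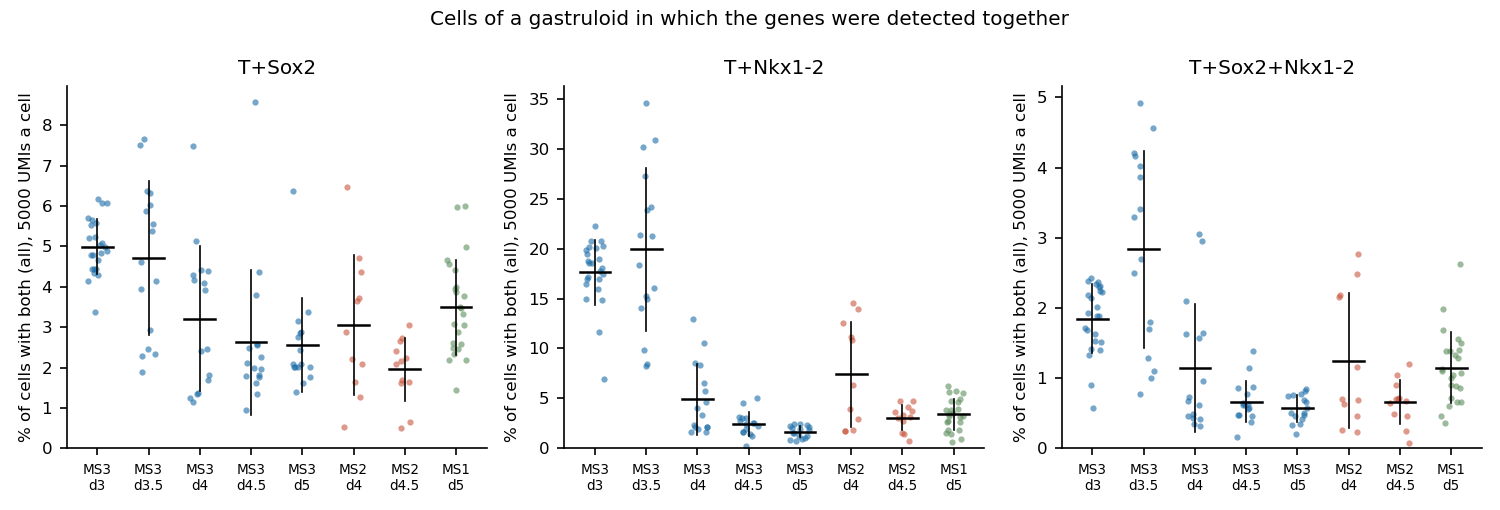
Percent of cells in which T and Sox2, T and Nkx1-2, or all 3 genes had at least 1 UMI after thinning to 5000 UMIs (vertical axes), per gastruloid (points), by experiment and day. Lines are means and bars SD; T with Nkx1-2 drops from 19.9% at day 3.5 to 4.93% at day 4, while T with Sox2 moves from 4.71% to 3.21%.

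From day 4.5 to day 5 none of the 4 shares passed. T and Sox2 stood at 2.62% ± 1.80 and 2.55% ± 1.16 (adjusted p = 0.929 by the permutation test). The medians were 2.05% and 2.08%, and the highest gastruloids had 8.57% and 6.36%. T and Nkx1-2 stood at 2.47% and 1.67% (adjusted p = 0.0549, 16 of 16 below the median of day 4.5). In MULTI-seq 2, T and Nkx1-2 fell from 7.42% at day 4 to 3.08% at day 4.5 (adjusted p = 0.041, 12 of 12 below the median of day 4), and T and Sox2 stood at 3.05% and 1.95% (adjusted p = 0.117). Across pools of MULTI-seq 3, T and Nkx1-2 fell from day 4 to day 4.5 (4.93% to 2.47%, adjusted p = 0.0356). The calls of this fall in both experiments were lost without thinning, at 8000 UMIs and with at least 2 UMIs of each gene, and that in MULTI-seq 2 also with at least 100 cells a gastruloid (-2.05 percentage points) and without lane 2 (-3.61). From day 3 to day 3.5, Sox2 with Nkx1-2 rose from 3.30% to 8.20% (adjusted p = 0.000747, 12 of 16 above) and all 3 from 1.85% to 2.83% (adjusted p = 0.0155, 10 of 16 above). T with Sox2 was at 4.99% ± 0.684 and 4.71% ± 1.91 (adjusted p = 0.626 by the permutation test). Its direction turned with at least 2 UMIs of each gene (6.35 percentage points higher at day 3.5) and without thinning (25.0% at day 3 and 31.7% at day 3.5).

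Between experiments, none of the 8 tests of MULTI-seq 3 against MULTI-seq 2 at days 4 and 4.5 passed. At day 5, MULTI-seq 3 was below MULTI-seq 1 in T with Nkx1-2 (1.67% against 3.42%, adjusted p = 0.00176), Sox2 with Nkx1-2 (4.26% against 7.10%, adjusted p = 0.0171) and all 3 genes (0.569% against 1.15%, adjusted p = 0.000747). T with Sox2 stood at 2.55% against 3.49% and did not pass (adjusted p = 0.0512 by the permutation test, 15 of 16 below the median of MULTI-seq 1). The experiments differed in depth, with medians of 28193 and 11141.5 UMIs per cell. Without thinning all 4 differences at day 5 turned to the opposite sign, for all 3 genes to 3.99 percentage points. The part of depth in the thinned difference was not tested.

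Joint detection was next compared with what the single shares of each gastruloid would give if the genes were detected independently, in 42 tests over gastruloids (paired permutation by sign changes, adjusted by Benjamini-Hochberg), of which 19 passed. Over all cells, T and Sox2 were together less often than the product of their shares at day 3 (4.99% observed, 6.41% expected, adjusted p = 0.000105, 23 of 24 gastruloids below) and at day 3.5 (4.71% and 6.07%, adjusted p = 0.0113, 11 of 16 below). In the other 6 groups the test did not pass. At day 4 of MULTI-seq 3, 3.21% were observed and 2.38% expected (adjusted p = 0.139, 14 of 16 gastruloids above). Without thinning, T with Sox2 passed as more frequent than expected there and at day 5 of MULTI-seq 3. Unthinned cells differ in depth, which can put joint detection above the product of shares even for independent genes. The unthinned test therefore cannot decide whether the 2 genes go together. Sox2 and Nkx1-2 were together more often than expected in 8 of 8 groups, with ratios of 1.12 to 1.55. T and Nkx1-2 were together more often in 6 groups, up to a ratio of 1.88 at day 4 (4.93% observed, 2.62% expected), and less often at day 3 (ratio 0.948, adjusted p = 0.00485), a call lost without thinning. The calls for Sox2 and Nkx1-2 in MULTI-seq 2 were lost at 3000 UMIs and without lane 3.

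Within single names the ratios ran from 0.924 to 1.10 over 18 tests, and 2 passed. Ratios of observed to expected joint detection of T and Sox2 in Caudal Epiblast were 0.993 and 1.01, and none of its 6 tests passed. In NMPs they ran from 0.924 to 0.990, and 1 of 4 passed, at day 4.5 of MULTI-seq 3 (13.6% observed, 14.7% expected, adjusted p = 0.0205 by the exact test, 8 of 8 gastruloids below). Without thinning, and with at least 2 UMIs of each gene, that call was lost. Sox2 and Nkx1-2 were together more often than expected in NMPs of MULTI-seq 1 (ratio 1.10, adjusted p = 0.0473), a call lost at 8000 UMIs and without lane 1 or lane 3.

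Within NMPs, T fell from day to day while the name stayed the same. Its level was 420 CPM ± 92.7 (n = 14, 248.5 to 549) at day 4 of MULTI-seq 3, 212 ± 62.7 (n = 13, 97.9 to 323) at day 4.5 and 135 ± 43.9 (n = 16, 69.5 to 223) at day 5. Neighbouring days overlapped, but every gastruloid of day 4 was above every gastruloid of day 5. From day 4.5 to day 5, T fell by 0.71 on the log2 scale (SE 0.11, adjusted p = 1.62e-06, edgeR) and Sox2 rose by 0.38 (SE 0.10, adjusted p = 0.00975). In this comparison 2.93% of 9286 genes were higher and 4.06% lower (272 and 377), which became 446 and 196 with no scaling beyond library totals. Nkx1-2 was at 0.06 (SE 0.10, adjusted p = 0.804). These names are conditional on expression, since the members themselves could bear on which cells are called NMPs. With cells named NMPs by the authors' map to an embryo reference instead, T was at -0.45 and no longer passed (adjusted p = 0.340).

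Other genes moved within NMPs between these days. Of 22 caudal epiblast and NMP genes 3 rose and 7 fell, with a median of -0.29 (all genes -0.00). Fgf4, a ligand of the streak, fell by 1.64, Cdx1 by 1.37 and Evx1, a caudal homeobox gene, by 0.44, while Hoxc6, a trunk Hox gene, rose by 0.74. Of 11 mesoderm exit genes tested, 2 fell and none rose. They were the Notch ligand genes Dll1 (-0.88) and Dll3 (-0.42). Of 7 neural exit genes tested, 2 rose and none fell. They were Sox1, an early neural SoxB1 factor (0.84), and Ncam1, a neural adhesion molecule (0.27). Of 10 notochord and streak genes, Mixl1 alone was high enough to be tested, and it fell by 1.36.

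The contrast from day 4 to day 4.5 within NMPs crosses pools and was added after the data were seen. T fell by 0.85 (SE 0.11, adjusted p = 2.2e-10), Nkx1-2 by 0.44 (SE 0.10, adjusted p = 0.000227) and Sox2 by 0.27 (SE 0.11, adjusted p = 0.0471), beside 38.3% of genes that passed. The mean of Sox2 was 79.5 CPM at day 4, 63.1 at day 4.5 and 81.2 at day 5, and that of Nkx1-2 was 116, 78.2 and 82.9. The fall of Sox2 depended on the setting. With embryo-mapped NMPs it turned to a rise of 0.42. With the authors' cluster names it kept its direction, but did not pass by DESeq2 (-0.24), with no filter beyond 1 UMI (-0.28), or without lane A, C or D of the pool of days 3.5 and 4 or lane C of that of days 4.5 and 5 (-0.28 to -0.21). At day 5, NMPs of MULTI-seq 3 had more Sox2 than those of MULTI-seq 1, by a log2 fold change of 0.48 (SE 0.09, adjusted p = 5.95e-06), beside 45.4% of genes. T (-0.16, adjusted p = 0.225) and Nkx1-2 (-0.02, adjusted p = 0.863) did not pass there. These sizes depended on the scaling between the experiments. The CPM means of Sox2, which are not TMM-scaled, were 81.2 and 69.8. With no scaling beyond library totals, added after the data were seen, the median of all genes was -0.24 in place of -0.03, Sox2 was at 0.27 and still passed, and T (-0.36, adjusted p = 0.00273 by edgeR) and Nkx1-2 (-0.22, adjusted p = 0.0246) passed as lower. From day 4 to 4.5 that scaling gave -0.99 for T, -0.42 for Sox2 and -0.59 for Nkx1-2, with a median of -0.16 in place of -0.01.

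**Figure D4:**
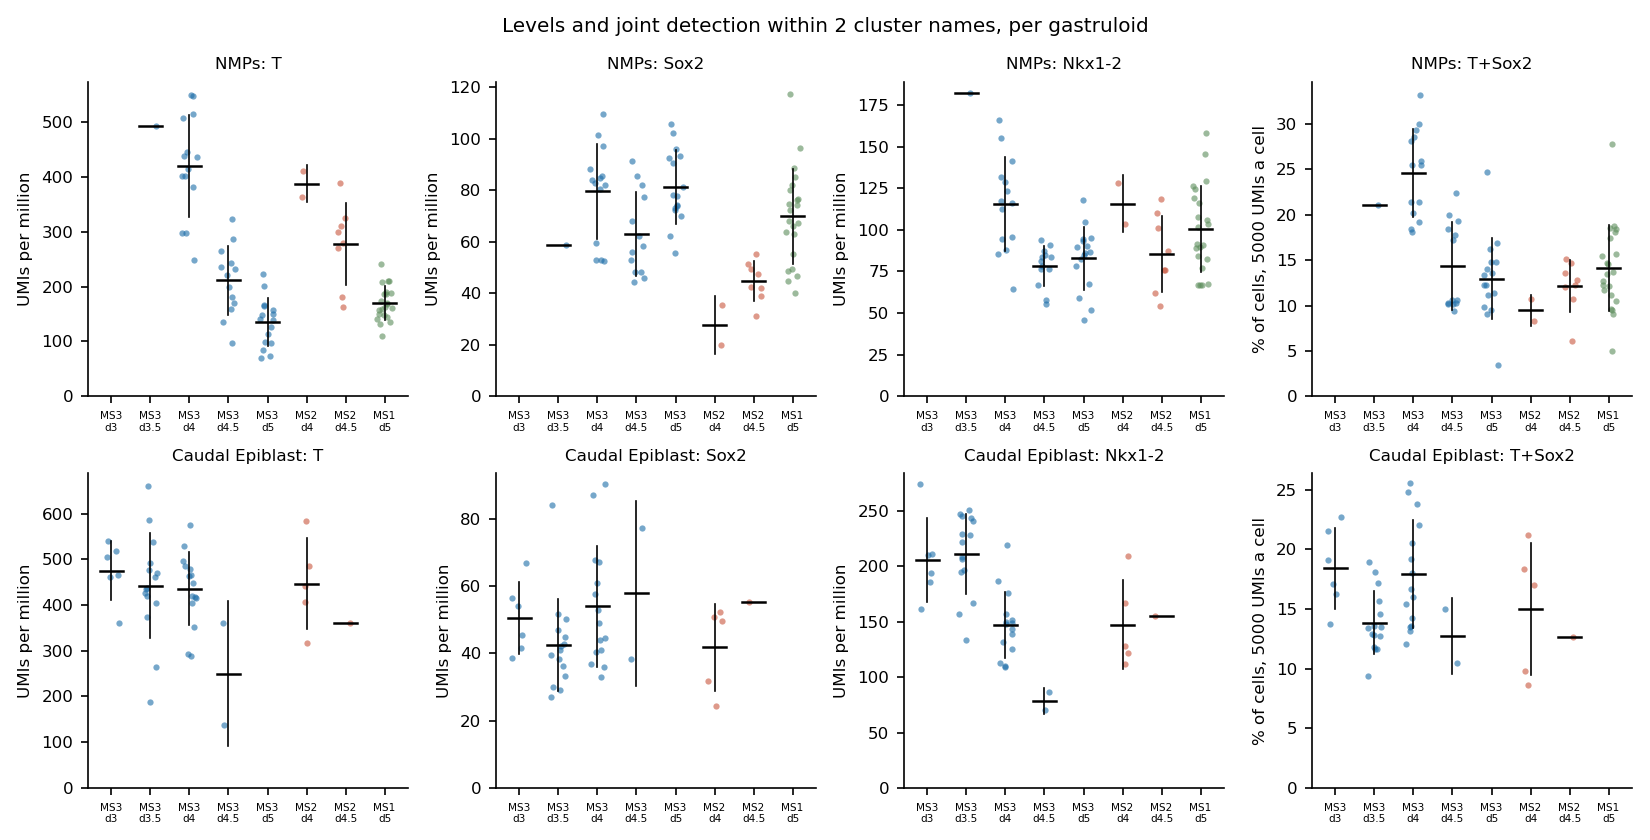
Levels of T, Sox2 and Nkx1-2 (CPM) and percent of cells with T and Sox2 (after thinning to 5000 UMIs) within cells named NMPs (upper row) and Caudal Epiblast (lower row), per gastruloid with at least 10 such cells (points), by experiment and day. Lines are means and bars SD; T in NMPs falls from 420 at day 4 to 135 at day 5, while T in Caudal Epiblast stands at 442 and 436 at days 3.5 and 4.

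The share of NMPs with both T and Sox2 was 24.6% ± 4.85 (n = 14, 18.1 to 33.2%) at day 4, 14.4% ± 4.81 (n = 13, 9.35 to 22.4%) at day 4.5 and 13.0% ± 4.50 (n = 16, 3.51 to 24.7%) at day 5. The step to day 4.5, also added later, passed (adjusted p = 0.00014 by the permutation test, 13 of 13 gastruloids below the median of day 4), as did that of all 3 genes (10.4% to 4.70%, adjusted p = 0.00014). Without thinning neither passed (-5.28 and -6.32 percentage points). The step to day 5 did not pass (adjusted p = 0.588). All 3 genes were together in 4.18% of NMPs at day 5 of MULTI-seq 3 and in 5.94% in MULTI-seq 1, a difference that passed (adjusted p = 0.0261, added later) and that turned to 28.0 percentage points the other way without thinning. Its call was lost without lane 1 or 3 of MULTI-seq 1 or lane B of MULTI-seq 3 (-1.82 to -1.38 percentage points).

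In Caudal Epiblast, Sox2 rose and Nkx1-2 fell between days 3.5 and 4, and T did not pass the test. T was at 442 CPM ± 115 (n = 15, 187 to 660) and 436 ± 79.9 (n = 15, 288 to 574), a log2 fold change of -0.02 (SE 0.10, adjusted p = 0.937). Sox2 rose by 0.39 (SE 0.11, adjusted p = 0.0112), from 42.5 to 53.9 CPM. Nkx1-2 fell by 0.47 (SE 0.08, adjusted p = 7.95e-06), from 211.6 CPM ± 36.1 (133 to 251) to 147 ± 29.9 (109 to 219). Of 9948 genes, 10.1% were higher and 9.47% lower. Over whole gastruloids T fell by 1.47 between these days, and whether the 2 changes of T differ was not tested.

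In the same cells 8 of 10 mesoderm exit genes rose and none fell, with a median of 0.73 (all genes 0.00). Tbx6, the T-box factor of presomitic mesoderm, rose by 1.29, Dll1 by 1.31 and Aldh1a2, which makes retinoic acid, by 1.00. Of 8 neural exit genes 3 rose, namely Irx3 (1.52), the Notch target Hes5 (1.45) and Ncam1 (0.70). Of 21 caudal genes 7 rose and 5 fell, with Fgf4 at 1.72 and Fgf17 at 1.31, and with Cdx1 and Pou5f1 each at -1.19. The 5 pluripotency genes tested all fell, among them Utf1 (-1.73) and Nanog (-1.27). The share of Caudal Epiblast cells with T and Sox2 was 13.9% ± 2.62 (9.43 to 19.0%) at day 3.5 and 17.9% ± 4.52 (12.1 to 25.6%) at day 4 (adjusted p = 0.02 by the permutation test, 13 of 15 above). This call was lost without lane C or lane D of the pool, at 8000 UMIs and with at least 2 UMIs of each gene, and unthinned the difference was -2.14 percentage points. The share with all 3 genes did not pass (8.96% and 8.83%, adjusted p = 0.885). In contrasts added later, no member passed from day 3 to day 3.5 or between MULTI-seq 3 and MULTI-seq 2 at day 4.

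Cells with T and Sox2 were then compared with cells of the same name and gastruloid that had T without Sox2, at full depth. T and Sox2 define the classes and are left out, and all other genes were free to move. In NMPs (33 gastruloids, 1055 against 655 cells), mesoderm exit genes were lower in the cells with both. Of 5 tested, 3 were lower and none higher, with a median of -0.63 (all genes -0.01). Dll1 averaged 79.9 CPM against 128 CPM, a log2 fold change of -0.68 (SE 0.07, adjusted p = 6.32e-11, edgeR with the gastruloid as block), lower in 29 of 33 gastruloids. Dll3 was lower in 30 of 33 (-0.63), and Tbx6 was lower in 24 of 33 (-0.72). Hes5 (0.47, higher in 20 of 33) and Ncam1 (0.22, higher in 25 of 33), 2 of 3 neural exit genes tested, were higher. Of 4734 genes, 1.33% were higher and 2.28% lower.

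Among 17 caudal genes tested in NMPs, 1 was higher and 4 were lower. Epha5, an ephrin receptor gene, averaged 97.8 CPM against 67.1 CPM (0.60, SE 0.08, adjusted p = 7.14e-08, higher in 30 of 33). Hoxb1 (-0.43, lower in 25 of 33) and the ligand gene Wnt3a (-0.32, lower in 19 of 33) were lower. So were Sp5, a target of Wnt (-0.19, 19 of 33), and Rspo3, an enhancer of Wnt signalling (-0.19, 23 of 33). Nkx1-2 itself was higher by 0.21 (SE 0.06, adjusted p = 0.0433, higher in 26 of 33 gastruloids, 100.3 against 85.2 CPM). It lay close to the threshold, and was lost in 10 of 13 fits that left out a lane, by DESeq2, without the gastruloid block and in MULTI-seq 3 alone (0.14). Outside the lists, Cystm1 (0.41), Slc2a3, a glucose transporter gene (0.38), and the mitosis genes Aspm (0.39), Ube2c (0.37) and Plk1 (0.36) were among the largest rises. The largest falls included Igfbp4 (-0.52), Smc6 (-0.43), Olfm1 (-0.41) and the Wnt antagonist gene Sfrp1 (-0.38).

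**Figure D5:**
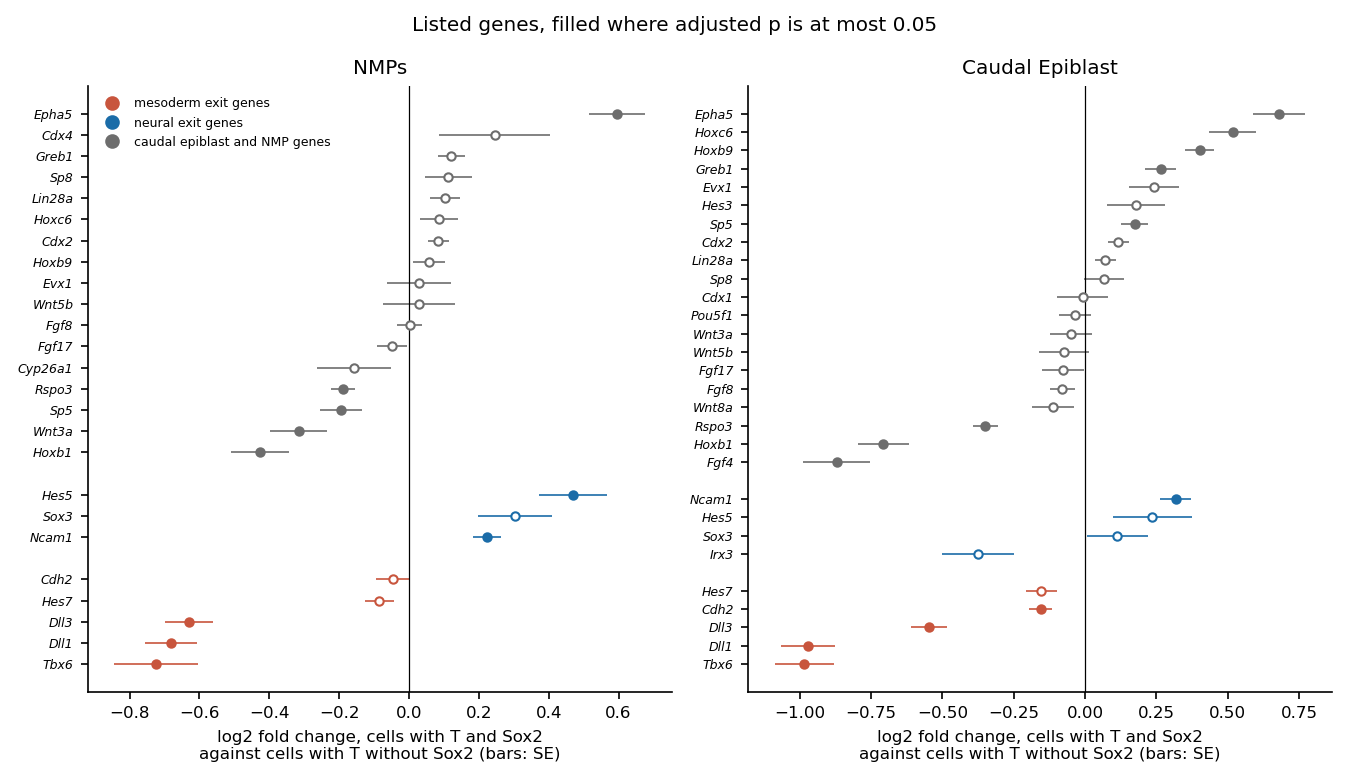
Log2 fold change (horizontal axis, error bars are SE) of list genes in cells with T and Sox2 against cells with T without Sox2, in NMPs and Caudal Epiblast, with mesoderm exit genes in red, neural exit genes in blue and caudal genes in grey. Filled points passed at an adjusted p of 0.05; Tbx6, Dll1 and Dll3 are to the left of 0 in both panels (Dll1 at -0.68 and -0.97) and Epha5 to the right (0.60 and 0.68).

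In Caudal Epiblast (23 gastruloids, 814 against 477 cells) 4 of 5 mesoderm exit genes were lower, with a median of -0.55 (all genes 0.00). Dll1 averaged 65.9 CPM against 124 CPM (-0.97, adjusted p = 5.75e-11) and Tbx6 was at -0.98 (adjusted p = 6.48e-10). Each was lower in 23 of 23 gastruloids. Dll3 (-0.55) and the cadherin gene Cdh2 (-0.16) were lower as well. Ncam1 (0.32) was higher, the only one of 4 neural exit genes that passed. Of 20 caudal genes 5 were higher and 3 lower. Epha5 (0.68, adjusted p = 2.05e-07, 21 of 23), Hoxc6 (0.52), Hoxb9 (0.40), Greb1 (0.26) and Sp5 (0.17) were higher, and Fgf4 (-0.87), Hoxb1 (-0.71) and Rspo3 (-0.35) lower. Among markers of other cell types, the streak gene Mixl1 (-0.81) and Epcam, an epithelial adhesion gene on the endoderm list (-0.24), were lower. Beyond the lists, Hoxc9 (0.79) and Hoxc8 (0.59) rose and Aplnr, a receptor gene of early mesoderm (-0.99), Fgf3 (-0.90) and Cited1 (-0.74) fell. Of 6780 genes 1.74% were higher and 2.37% lower. Nkx1-2 was at 0.11 (SE 0.05) and did not pass (adjusted p = 0.215).

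The classes differed in depth. Over all NMPs of these experiments, cells with both genes had a median of 27168 UMIs and those with T without Sox2 had 18946.5. In Caudal Epiblast the medians were 35292 and 29992. A doublet score in the authors' deposited table (the cxds call) marked 8.11% of the NMPs with both genes and 3.05% of those with T without Sox2, and its part in the differences was not tested. In 44.7% of NMPs with both genes, T or Sox2 rested on a single UMI. With cells of 15000 to 35000 UMIs only, an alternative added after the data were seen (medians 26072.5 and 23929 in NMPs), 11 of the 33 gastruloids remained in NMPs and 15 of the 23 in Caudal Epiblast, so the test had fewer samples. There 14 of the 171 genes called in NMPs passed and 169 of the 170 tested had the same direction. Tbx6 (-0.96), Dll1 (-0.40), Dll3 (-0.52), Hes5 (0.82) and Epha5 (0.66) passed there, and Aspm, Ube2c, Plk1 and Nkx1-2 did not. Wnt3a (-0.46), Rspo3 (-0.18), Sp5 (-0.21), Ncam1 (0.16), Igfbp4 (-0.33), Olfm1 (-0.54) and Sfrp1 (-0.35) did not pass either, although the folds of Wnt3a and Olfm1 were larger than over all depths. In Caudal Epiblast 26 of 279 passed, among them Tbx6 (-0.60), Dll1 (-0.54), Epha5 (0.65), Ncam1 (0.37), Hoxb9 (0.41) and Sp5 (0.31), and 235 of the 243 tested had the same direction. Epcam (-0.39) passed as well. Dll3 (-0.26, adjusted p = 0.377 by edgeR), Fgf4 (-0.50, adjusted p = 0.108), Rspo3 (-0.11, adjusted p = 0.480), Hoxb1 (-0.46, adjusted p = 0.0608), Hoxc6 (0.49), Greb1 (0.27), Cdh2 (-0.03), Hoxc8 (0.33), Fgf3 (-0.61) and Cited1 (-0.35) did not pass there.

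Most named differences were smaller when the classes were made from a draw of 5000 UMIs per cell, in which a cell whose Sox2 UMIs were not drawn counts as lacking Sox2. There 12 gastruloids remained in NMPs and 5 in Caudal Epiblast, and 1 and 0 genes passed. Dll3 passed in NMPs (-0.59, adjusted p = 0.0133 by edgeR). Hoxb1 (0.09), Wnt3a (0.03) and Sp5 (0.01) turned to positive values in NMPs, and Rspo3 was at -0.04. Dll1 in NMPs went from -0.68 to -0.02 (SE 0.11), Tbx6 from -0.72 to -0.21 (SE 0.15), Hes5 from 0.47 to 0.09 (SE 0.09) and Epha5 from 0.60 to 0.43 (SE 0.12), while Igfbp4 stood at -0.52 and -0.51 (SE 0.17). In Caudal Epiblast, Tbx6 went from -0.98 to -0.22 (SE 0.20), Dll1 from -0.97 to -0.38 (SE 0.14), Dll3 from -0.55 to -0.11, Hoxc9 from 0.79 to 0.01 (SE 0.26), Epha5 from 0.68 to 0.44 (SE 0.15) and Cited1 from -0.74 to -0.63 (SE 0.19). Of the main calls tested there, 95 of 171 and 184 of 273 had the same direction. At that depth the differences in Tbx6, Dll1, Hes5 and Epha5 did not pass in either name.

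With no scaling beyond library totals, the called genes of NMPs were 97 higher and 35 lower, against 63 and 108 with TMM scaling, and those of Caudal Epiblast 165 and 129, against 118 and 161. The balance of rises and falls in these classes thus turned with the scaling, while the median of all genes moved by 0.03 or less.

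NMPs with both genes could be set against those with Sox2 without T in 3 gastruloids only (127 against 34 cells). There 0% of 4794 genes passed by edgeR's quasi-likelihood test, 275 genes had an unadjusted p at or below 0.05, and DESeq2 called 0. A class needed at least 10 cells in a gastruloid to enter. In Caudal Epiblast no gastruloid reached this for cells with Sox2 without T, of which there were 10 in all, so no test was made there. In NMPs 186 cells had Sox2 without T, at a median of 14968 UMIs, and 150 had neither gene, at a median of 9854.

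The genes most like each member were found over 107 sums of cells of 1 name in 1 group (24 names, at least 50 cells each), by Pearson's r of log2(CPM + 10) over 8790 genes. The sums share lanes, depths and names, so r is a description. T was most like Fgf8 (0.88), a ligand gene of the streak and tail bud, followed by Epha1 (0.88), Smim10l2a (0.88), Klhl32 (0.87) and Defa30 (0.87). Sox2 was most like Sox3 (0.90), its nearest SoxB1 relative in neural cells, then Sfrp2 (0.90), Hap1 (0.88), Dtx4 (0.87) and Mbp (0.86). Nkx1-2 was most like Lhpp (0.95), which is its neighbour on chromosome 7 (chr7:132610638-132706420, plus strand), with 11000 bases between them. Camkv (0.91), Epha5 (0.89), Sema4d (0.89) and Gtf3a (0.89) followed. The members were less like each other, with r of -0.06 for T and Sox2, 0.38 for T and Nkx1-2 and 0.53 for Sox2 and Nkx1-2. Taking the lowest of the 3 r values, Sp8, a zinc finger factor gene of the tail bud, was most like all 3 (0.58), followed by Sema4d (0.53), Rims2 (0.52), Itga6 (0.49) and Fam222a (0.48).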

How the data were processed

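The deposited matrices hold UMI counts per gene and cell barcode for 18 lanes, made by the authors with Cell Ranger 6.0.0 and processed with Seurat on mm10, per the submitters' processing notes; whether counting used strand is not stated there. Cells, cluster names, days and gastruloid barcodes came from the authors' deposited cell table. 9 cells without a barcode in the matrix were dropped, and 4 samples were not analysed here. The members and the gene lists were chosen with earlier results of these data known.

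Counts were summed per gastruloid (at least 30 cells) over the lanes of a pool, and per gastruloid and name (at least 10 cells). UMI sums per gastruloid ran from 1293296 to 57333371. Levels were tested with edgeR 4.0.16 (R 4.3.3; TMM scaling, filterByExpr, quasi-likelihood test, 1 fit of 8 groups, Benjamini-Hochberg adjustment over all genes, threshold 0.05), and an SE is the absolute log2 fold change divided by the square root of F. DESeq2 1.42.0 was an alternative. Shares were the exact expectation after thinning each cell to 5000 UMIs without replacement, compared by two-sided permutation with 100000 resamples, exact where a group was under 10 (Python 3.11.15, NumPy 2.4.6, SciPy 1.17.1, pandas 2.3.3). The smallest p of the resamples is 1e-05. Observed and independent joint detection were compared over gastruloids with at least 20 cells of a name. Intervals cover counting error only.

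Genes were named by rule. For a list these were at most 4 with the largest change among those that passed. For cells with both genes they were up to 8 rises and 8 falls with a mean log2 CPM of at least 4 and the same direction in at least 3 of 4 gastruloids. For likeness they were the 5 highest r. The text names the remaining list members that passed in the class comparison, which were chosen after their values were seen. Alternatives changed scaling, tool, filter, cell minimum, thinning, detection threshold and lanes. Tested on simulated data made like days 3.5 and 4 of MULTI-seq 3 (13262 genes), edgeR recovered 77.6% of 1.5-fold, 97.0% of 2-fold and 98.5% of 4-fold changes and called 8 of 13062 unchanged genes. The simulation fitted 2 groups alone and drew each gene independently. Its rates therefore need not hold for the fit of 8 groups or for genes that vary together between gastruloids.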

Additional observations from a re-analysis of the deposited data

Results flagged for a closer look

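Signals of T with Sox2 also appeared in cells that entered no test, because the table gives them no gastruloid. The shares over all cells of a name include such cells. The thinned share of cells with both genes was 3.49% in the day 3 lane and 4.73% in the day 4 lane of the 10X experiment, and 2.99% and 3.29% in lanes 1 and 2 of pool C of MULTI-seq 2 (days 4 and 4.5). Unthinned, these were 326 of 3058, 334 of 2440, 395 of 2835 and 343 of 2271 cells. These are shares over whole lanes. The mean shares of called gastruloids of MULTI-seq 3 were 4.99% at day 3 and 3.21% at day 4. Those of MULTI-seq 2 pool B were 3.05% at day 4 and 1.95% at day 4.5. Lanes and gastruloids are unlike units, so the difference was not tested.

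Cells without a gastruloid call in the lanes of MULTI-seq 2 pool B and MULTI-seq 3 had both genes in 5.25% of 8441 cells after thinning, against 3.22% of 44096 cells with a call and 3.39% of 4797 called doublets. These totals mix days, since 4847 of the 8441 cells and 5778 of the 44096 were of day 3. At day 3 the values were 5.03% without and 4.92% with a call. They were 6.08% and 3.43% in the pool of days 3.5 and 4, and 2.50% and 2.61% in that of days 4.5 and 5. In MULTI-seq 2 pool B they were 4.33% and 2.27%. Called doublets had 5.91%, 3.43%, 1.68% and 0.930% in the same order of pools. The lanes and calls are not replicates, so these values were not tested. No gastruloid stood far from the others of its group in 20 groups and values of 4 to 10 gastruloids within NMPs, Caudal Epiblast and Notochord. Larger groups, and groups over all cells, were not looked at in this way.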

How the results depend on the processing

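No paired analysis was possible because the replicate labels are lanes that split 1 pool, so gastruloids of different days share no number. This concerns comparisons between days and experiments, since classes and joint detection were compared within gastruloids. Of the members' tests under all alternatives, 508 values of the main contrasts kept direction and side of the threshold, 29 were lost, 13 gained and 13 reversed. Of the other tests, contrasts added later among them, 588 kept both, 28 were lost, 10 gained and 21 reversed. Of 17 values by cluster name 6 moved by more than the spread. The cause of a change was not tested.

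Shares (percentage points). From day 3.5 to 4, T with Sox2 was -13.8 unthinned and -8.54 with at least 2 UMIs of each gene, both past the threshold, and -1.60 to -1.43 with a lane left out. At day 5, MULTI-seq 3 minus MULTI-seq 1 reversed unthinned (T with Sox2 6.32, T with Nkx1-2 2.26, Sox2 with Nkx1-2 4.05, all 3 3.99) and with at least 2 UMIs (4.70, 2.87, 7.43 and 2.68). T with Sox2 there was -2.15 at 8000 UMIs, past the threshold, and -1.03 to -0.826 with a lane left out. From day 3 to 3.5, T with Sox2 was 6.35 with at least 2 UMIs, and was also higher at day 3.5 unthinned (25.0% and 31.7% of cells). Within Caudal Epiblast, T with Sox2 was -2.14 unthinned, 5.35 at 8000 UMIs and 0.682 with at least 2 UMIs, none past the threshold, and 2.93 to 4.62 with a lane left out. Within NMPs at day 5, MULTI-seq 3 minus MULTI-seq 1 reversed unthinned (26.1, all 3 28.0) and with at least 2 UMIs (27.4 and 21.1). Observed minus expected T with Sox2 passed unthinned, where cells differ in depth, at day 4 (2.37) and day 5 (3.07) of MULTI-seq 3. It was lost within NMPs at day 4.5 (-0.214 unthinned, -1.17 with at least 2 UMIs).

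Levels (log2). For Sox2 from day 4 to 4.5 in MULTI-seq 2 the call was lost without a filter (1.497) and in a fit of 2 groups (1.46), with 1.63 to 1.85 with a lane left out. With at least 100 cells, Nkx1-2 in that step (0.95), and Sox2 (0.98) and Nkx1-2 (0.33) between MULTI-seq 3 and 2 at day 4, reversed. With a lane left out these last 2 were -0.10 to 0.34 and -1.10 to -0.66, and T at day 4.5 was -0.0126 to 0.147. The fit of 2 groups gained Sox2 from day 3 to 3.5 (0.69) and Nkx1-2 against MULTI-seq 1 (-0.61), and lost T from day 4 to 4.5 (-0.74) and Nkx1-2 against MULTI-seq 2 at day 4 (-1.09). With no scaling beyond library totals Sox2 from day 3 to 3.5 (0.87) and Nkx1-2 against MULTI-seq 1 (-0.83) were gained, Sox2 against MULTI-seq 2 at day 4 reversed (0.0965), and Nkx1-2 in Caudal Epiblast reversed from day 3 to 3.5 (0.0315) and against MULTI-seq 2 (0.0786). With embryo-mapped NMPs, T from day 4.5 to 5 was -0.45 and lost, Nkx1-2 reversed (-0.15), and of the contrasts added later Sox2 from day 4 to 4.5 (0.42) and T against MULTI-seq 2 (0.0919) reversed. Nkx1-2 in other contrasts added later reversed at values near 0, in NMPs against MULTI-seq 1 (0.000188 unfiltered, 0.0176 with at least 20 cells, -0.0424 to 0.0264 with a lane left out), and in Caudal Epiblast from day 3 to 3.5 (0.00734 unfiltered) and against MULTI-seq 2 (0.185 with at least 20 cells, -0.0687 to 0.192 with a lane left out).

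Cells with both genes against T without Sox2. The 63 higher and 108 lower genes of NMPs became 37 lower unfiltered, 0 and 1 with a draw of 5000 UMIs, 97 and 35 with no scaling beyond library totals, 47 lower without the gastruloid block and 5 and 11 at 15000 to 35000 UMIs, and ran from 35 to 64 and 52 to 109 with a lane left out. The 118 and 161 of Caudal Epiblast became 182 higher unfiltered, 65 higher by DESeq2, 0 and 0 with the draw, 42 and 84 without the block and 21 and 10 at 15000 to 35000 UMIs, and ran from 28 to 128 and 64 to 184. Nkx1-2 in NMPs lost its call by DESeq2 (0.21), with the draw (0.12), without the block (0.22), in MULTI-seq 3 alone (0.14) and at 15000 to 35000 UMIs (0.13), with 0.17 to 0.27 with a lane left out. Against Sox2 without T, 2 genes passed unfiltered and 1 with the draw, where Nkx1-2 reversed (0.0849). Of other gene counts, day 4.5 against day 4 in MULTI-seq 2 fell from 904 and 966 to 335 and 479 in a fit of 2 groups, and day 5 against 4.5 within NMPs from 272 and 377 to 122 and 154 without lane A. Shares at 5000 UMIs miss most cells that express a gene at a low level, so a low share is not absence.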
